A study of Mus musculus with 8 samples.

Results

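Matrix metalloproteinases and their inhibitors were examined in the left and right heart field of the mouse embryo. The 10 genes were chosen by their symbols: the metalloproteinases *Mmp2*, *Mmp9*, *Mmp11*, *Mmp14*, *Mmp15* and *Mmp16*, the tissue inhibitors *Timp1*, *Timp2* and *Timp3*, and *Reck*, out of 48526 genes in the count table. Each had a single row there. The heart field holds the progenitors that are added to the heart tube, and in the study it was dissected from wild-type male C57bl6/J embryos at stage E8.5f, cut at the midline and sequenced as separate left and right libraries. There were 4 embryos, L29-3, L43-5, L46-8 and L49-3, and thus 8 libraries, with neither a mutation nor a treatment in any group. Per the methods, the heart was removed during dissection, although reads of cardiomyocyte markers were present in every library, as given below. The question is which of these genes differ between the sides of a tissue that is patterned by NODAL on the left.

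Matrix metalloproteinases (MMPs) are zinc enzymes that cut collagens, laminins, fibronectin and many cell surface proteins. They are made as inactive precursors, and most are secreted, whereas the membrane-type enzymes encoded by *Mmp14*, *Mmp15* and *Mmp16* stay at the cell surface. The TIMPs bind the active site of the enzymes and block it, and RECK is a membrane-anchored protein that also restrains MMPs. TIMP2 has a further part, since a complex of MMP14 and TIMP2 at the cell surface captures the precursor of MMP2, which a free MMP14 then activates. Remodeling of the matrix by these enzymes accompanies cell migration and the shaping of the heart tube in vertebrate embryos.

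The total count per library ranged from 1147446 to 3520753, with a median of 1916167, after the authors had excluded duplicate reads. Per the methods, duplicates were most of the reads, and the effect of their exclusion on levels and ratios between genes was not tested. A count of 0 allows up to 3 counts, or 0.852 CPM (reads scaled to a common library total) in the largest and 2.61 CPM in the smallest library, and such limits cover counting error only. Of the markers examined, the 5 genes of the second heart field had summed normalized counts of 296 to 619 per library. Neural tube markers, 5 genes, summed to 105 to 607, and cardiomyocyte markers, 5 genes, to 409 to 3213, the lowest in the left library of L49-3. The juxta-cardiac field markers *Tbx5*, *Mab21l2* and *Hand1* summed to 48.0 on the left and 51.5 on the right of L49-3, and elsewhere to between 203 and 425, so that this embryo stood apart. The 5 markers of primitive blood summed to 0 to 31.7, and the 3 markers of other blood cells to 0 to 4.95. Of these last, *Ptprc* had 0 reads in all 8 libraries together, *Cx3cr1* had 1 and *Csf1r* had 26.

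On GRCm38, *Mmp2* lies at chr8:92827291-92853420 and *Mmp15* also on chromosome 8, at chr8:95352268-95375080. *Mmp9* is at chr2:164940780-164955850, *Mmp11* at chr10:75923222-75936496, *Mmp14* at chr14:54431612-54445364 and *Mmp16* at chr4:17852893-18119145. *Timp1* is at chrX:20870166-20874735, *Timp2* at chr11:118301069-118355740, *Timp3* at chr10:86300372-86349506 and *Reck* at chr4:43875530-43944806. All 10 are annotated as protein coding. *Timp1* lies within *Syn1*, and *Timp3* within *Syn3*, synapsin genes read from the opposite strand. No exon is shared between *Timp1* and *Syn1*, but 1733 exon bases of *Timp3* are shared with *Syn3*, which had 24 reads in all libraries together against 442 of *Timp3*. *Mmp11* shares 155 exon bases with *Chchd10* on the opposite strand, which had 109 reads against 329 of *Mmp11*. The strand setting of the counting is not given in the sources used here, so that reads from the shared bases cannot be assigned with certainty. *Mmp14*, *Mmp15* and *Mmp16* share stretches of at least 100 bases and 90% identity with 257, 97 and 35 other genes, and the longest of these were 186, 196 and 131 bases. Reads within those stretches are uncertain.

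The upstream sequences of members with low and high levels are shown because the families differ in how their promoters are built in textbook accounts, where inducible genes carry a TATA box and an AP-1 site. RefSeq promoters of GRCm38.p6 were found for 7 of the 10 members, and not for *Mmp2*, *Mmp9* and *Mmp16*. The 250 bases before the start site are given 5′ to 3′ on the strand of the gene, with each GC box (GGGCGG, read on both strands) in capitals, for *Mmp14*, the member with the most reads, *Timp2*, the inhibitor with the highest level, and *Timp1*, the member with the fewest reads.
Mmp14, chr14:54431348-54431597, plus strand: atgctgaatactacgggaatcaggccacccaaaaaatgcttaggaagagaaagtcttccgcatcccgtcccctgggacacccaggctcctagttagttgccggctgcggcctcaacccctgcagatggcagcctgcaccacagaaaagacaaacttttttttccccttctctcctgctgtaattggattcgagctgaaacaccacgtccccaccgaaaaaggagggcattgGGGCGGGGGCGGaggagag
Timp2, chr11:118355412-118355661, minus strand: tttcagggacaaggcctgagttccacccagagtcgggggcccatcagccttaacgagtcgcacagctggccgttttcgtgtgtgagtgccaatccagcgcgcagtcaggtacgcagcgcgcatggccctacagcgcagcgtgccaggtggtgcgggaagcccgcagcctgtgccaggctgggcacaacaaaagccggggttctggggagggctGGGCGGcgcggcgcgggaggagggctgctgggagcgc
Timp1, chrX:20869916-20870165, plus strand: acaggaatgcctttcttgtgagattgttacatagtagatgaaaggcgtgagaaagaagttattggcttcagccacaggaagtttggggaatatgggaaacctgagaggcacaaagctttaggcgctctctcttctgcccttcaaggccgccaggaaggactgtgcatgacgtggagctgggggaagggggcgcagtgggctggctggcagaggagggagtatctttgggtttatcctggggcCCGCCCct

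A GC box was found in all 7 promoters, compared with 61.2% of 9533 promoters of the genes tested here and 32.7% of all 32851 promoters of the table. In *Mmp14* there were 2 adjacent copies that began 19 and 13 bases before the start site. In *Timp2* the single copy began 37 bases before it, and in *Timp1* it lay on the opposite strand, 8 bases before it. The *Timp2* promoter had 21 CpG dinucleotides, *Mmp14* had 10 and *Timp1* had 6, against a median of 17 for the genes tested. None of the 7 promoters had a TATA box (TATAAA, both strands; 5.9% of promoters of tested genes) or an AP-1 site (TGANTCA, both strands; 3.7%). These matches describe the letters of the windows and are not evidence of binding.

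The order of expression among members was compared per kilobase of merged exons, as CPM per kilobase, since longer genes collect more reads. *Mmp2*, which encodes gelatinase A, had the highest level, 34.6 ± 4.95 CPM per kilobase (SD, n = 8 libraries of 4 embryos). It was followed by the membrane-type enzymes *Mmp15* with 24.5 ± 2.91 and *Mmp14* with 23.5 ± 3.27 (SD, n = 8 libraries). *Mmp2* was above *Mmp15* in 8 of 8 libraries, whereas *Mmp15* was above *Mmp14* in 5 of 8, so that these neighbours did not differ beyond their spread. These 3 genes made up most of the MMP transcripts. Of the summed level of the 6 MMP genes, *Mmp2* had 37.2% ± 2.18, *Mmp15* 26.5% ± 2.04 and *Mmp14* 25.4% ± 2.21 (SD, n = 8 libraries).

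**Figure D1:**
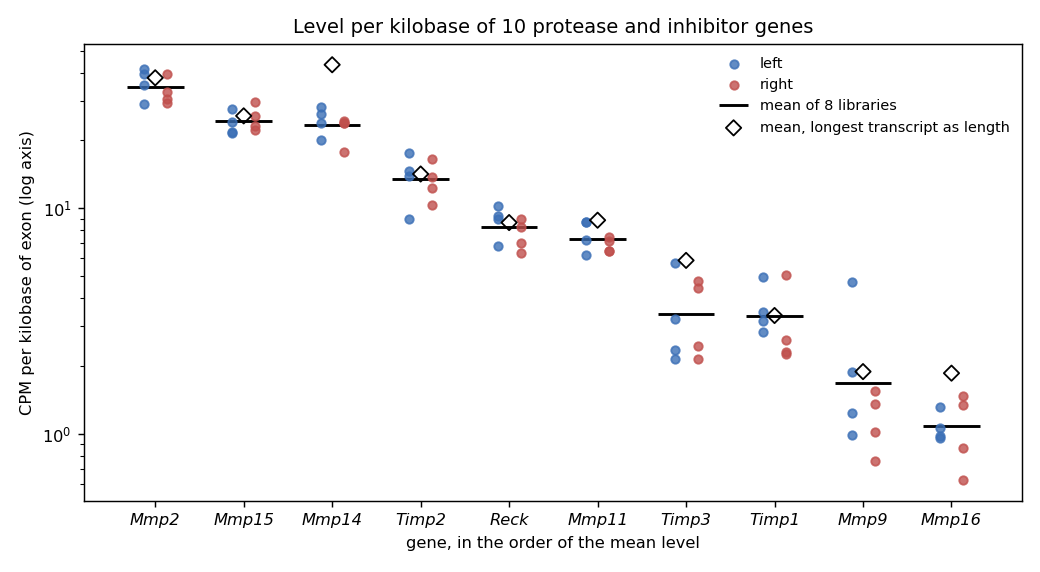
Level of each member in CPM per kilobase of merged exons on a log axis, with 4 left and 4 right libraries as points, the mean of 8 libraries as a bar, and the mean with the longest transcript as length as an open diamond. Levels ran from 34.6 for *Mmp2* to 1.08 for *Mmp16*, and the diamond of *Mmp14*, at 43.3, lies above that of *Mmp2*, at 37.9.

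*Timp2* led the inhibitors with 13.5 ± 2.91 CPM per kilobase and was above *Reck*, with 8.23 ± 1.37, in 8 of 8 libraries (SD, n = 8 libraries). *Mmp11*, which encodes stromelysin-3, an enzyme activated inside the cell, had 7.30 ± 0.957 CPM per kilobase and was below *Reck* in 6 of 8 libraries. *Timp3*, whose product is held in the matrix, and *Timp1*, a soluble inhibitor, had 3.41 ± 1.38 and 3.33 ± 1.11, and *Timp3* was the higher in 3 of 8 libraries, so that their order cannot be stated. *Mmp9*, which encodes gelatinase B, had 1.69 ± 1.27 and *Mmp16* 1.08 ± 0.282 CPM per kilobase, with *Mmp9* higher in 6 of 8 libraries (SD, n = 8 libraries). Among the 9744 genes tested for differences, with a median of 11.1 CPM per kilobase, 83.3% had a level below that of *Mmp2*, 57.0% below that of *Timp2* and 12.6% below that of *Timp3*. The order depends on the length used. With the longest transcript in place of merged exons, *Mmp14* came first with 43.3 CPM per kilobase, ahead of *Mmp2* with 37.9, because the merged exons of *Mmp14* cover 5960 bases and its longest transcript 3238. *Mmp11* then also came before *Reck*, with 8.86 and 8.65.

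Ratios between members were then taken within each library, first for the components of the MMP2 activation complex. The level of *Timp2* per kilobase was between 0.311 and 0.447 of that of *Mmp2*, and between 0.434 and 0.739 of that of *Mmp14*, with merged exons as length. *Mmp2* exceeded *Mmp14* in 8 of 8 libraries, by factors of 1.22 to 1.72 on this scale. The gelatinases were far apart, with a level of *Mmp9* from 0.0192 to 0.163 of that of *Mmp2*, the highest value being that of the left library of L49-3. Among the membrane-type enzymes, the level of *Mmp16* was 0.0344 to 0.0611 of that of *Mmp14*.

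Left and right libraries were compared for all genes at once, with the embryo as a block, and no tested member was called different. Of the 10 members, 7 reached 20 normalized counts in at least 4 libraries and were tested. Of these, 0 passed the threshold of the study, a change of 1.2-fold or more in either direction at an unadjusted p of 0.05 or less, which 3.05% of all tested genes passed in edgeR's quasi-likelihood test. The study listed genes that passed in any of limma-voom, DESeq2 and edgeR, whereas this share is for edgeR alone. An unadjusted p of at most 0.05 was reached by 0 of the 7 and by 4.36% of all genes, and an adjusted p under 0.05 by 0 of the 7 in edgeR, and likewise by 0 in limma-voom and DESeq2, against 0.0103% of all genes in edgeR. The unadjusted p-values of the members ranged from 0.154 to 0.766 in edgeR, and their adjusted p-values from 0.987 to 0.995. In a bulk sample, fewer cells of a type and less RNA per cell cannot be told apart, so that each value below is one of the dissected tissue as a whole. The normalized counts that follow are counts divided by DESeq2 size factors and compare libraries, not genes.

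**Figure D2:**
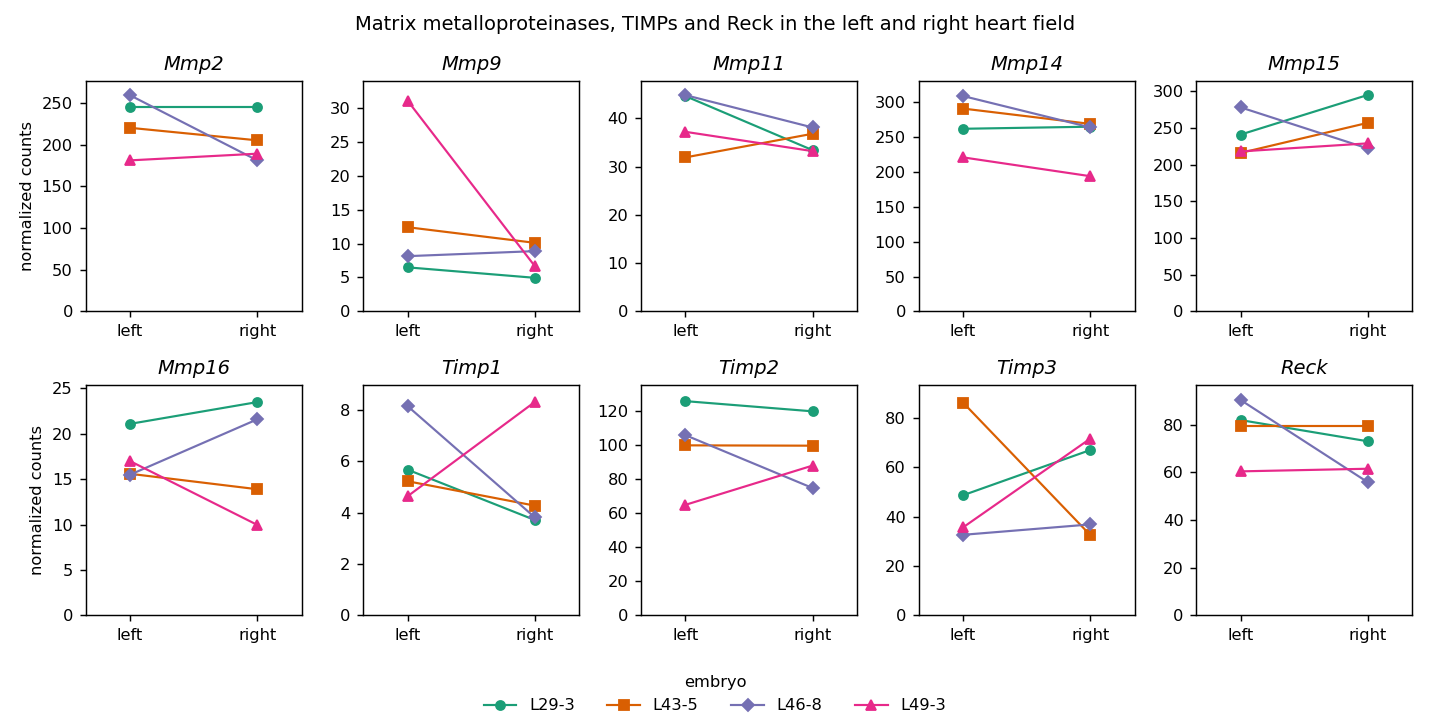
Normalized counts of the 10 members, with the left and right library of each embryo joined by a line and the axis starting at 0. Left and right values overlapped for every member, and the steepest lines are those of *Mmp9* in L49-3, from 31.0 on the left to 6.65 on the right, and of *Timp3* in L43-5, from 86.1 to 32.5.

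*Mmp14*, the activator of MMP2 at the cell surface, had 262, 291, 309 and 221 normalized counts in the left libraries of L29-3, L43-5, L46-8 and L49-3, and 265, 269, 264 and 194 in the right ones. The left values were the higher in 3 of 4 embryos, by small margins, and the sides overlapped. The log2 fold change of left over right was 0.12 (standard error 0.0797, 95% interval -0.05 to 0.30, unadjusted p = 0.154 and adjusted p = 0.987 from edgeR). As a fold change, the 95% interval ran from 0.96 to 1.23 times the right level. Among the members this was the narrowest interval.

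*Mmp2* had 245, 220, 259 and 181 normalized counts in the left libraries and 245, 205, 181 and 189 in the right ones, in the same order of embryos. L29-3 was even, and the only wide gap was that of L46-8. The log2 fold change was 0.14 (standard error 0.102, 95% interval -0.08 to 0.36, unadjusted p = 0.191 from edgeR), and 0.02 without L46-8. *Mmp15*, a further membrane-type enzyme, had 241, 216, 278 and 218 normalized counts in the left libraries and 295, 257, 222 and 229 in the right ones. It was the single tested member with a negative log2 fold change, -0.09 (standard error 0.104, 95% interval -0.31 to 0.14, unadjusted p = 0.425 from edgeR). L46-8 went against the other embryos, being the only one with more on the left. Without it, the log2 fold change of *Mmp15* was -0.22 (edgeR, unadjusted p = 0.0371, adjusted p = 0.996), whereas it was -0.01 without L29-3 and -0.02 without L43-5. *Mmp11* was lower, with 44.6, 31.9, 44.8 and 37.2 normalized counts in the left libraries and 33.4, 36.8, 38.1 and 33.2 in the right ones. Its log2 fold change was 0.13, with a 95% interval of -0.31 to 0.56 (unadjusted p = 0.533 from edgeR).

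Among the inhibitors, *Timp2* had 126, 100, 106 and 65.0 normalized counts in the left libraries and 120, 99.8, 74.9 and 88.1 in the right ones. The sides were nearly equal in L29-3 and L43-5, whereas L46-8 had more on the left and L49-3 more on the right. Left over right, the log2 difference was 0.06 (standard error 0.143, 95% interval -0.25 to 0.38, unadjusted p = 0.659 from edgeR) and -0.06 without L46-8. *Reck* had 81.9, 79.5, 90.3 and 60.4 normalized counts in the left libraries and 73.0, 79.5, 55.8 and 61.5 in the right ones. Its log2 difference of 0.20 was the highest of the tested members (standard error 0.154, 95% interval -0.13 to 0.54, unadjusted p = 0.214 from edgeR), and again rested on L46-8, since it was 0.05 without this embryo.

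*Timp3* had the widest interval of the 7 tested members. It had 48.6, 86.1, 32.6 and 35.6 normalized counts in the left libraries and 66.9, 32.5, 36.8 and 71.5 in the right ones. The other 3 embryos had more on the right, and L43-5 had more on the left, with 132 reads against 61. The fitted log2 fold change of 0.10 (standard error 0.319, 95% interval -0.60 to 0.79, unadjusted p = 0.766 from edgeR) had the opposite sign to the mean of the 4 single-embryo log2 ratios, -0.06. Those ratios had an SD of 1.02 (n = 4 embryos), the widest of all 10 members. Without L43-5 the log2 fold change was -0.53 (edgeR, unadjusted p = 0.0456, adjusted p = 0.969). With all 4 embryos kept, DESeq2 gave -0.03, so that the sign for *Timp3* depended on the method as well as on L43-5. In the left and right libraries of L43-5, neural tube markers summed to 216 and 353 normalized counts, paraxial mesoderm markers to 332 and 517, and cardiomyocyte markers to 2020 and 2788. Markers of the second heart field summed to 296 and 420, of cranial neural crest to 304 and 320 and of foregut endoderm to 151 and 155. Higher on the left were surface ectoderm markers with 1611 and 1399, endothelial markers with 660 and 631 and juxta-cardiac field markers with 285 and 280. The part of these tissues in the value of *Timp3* was not tested.

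**Figure D3:**
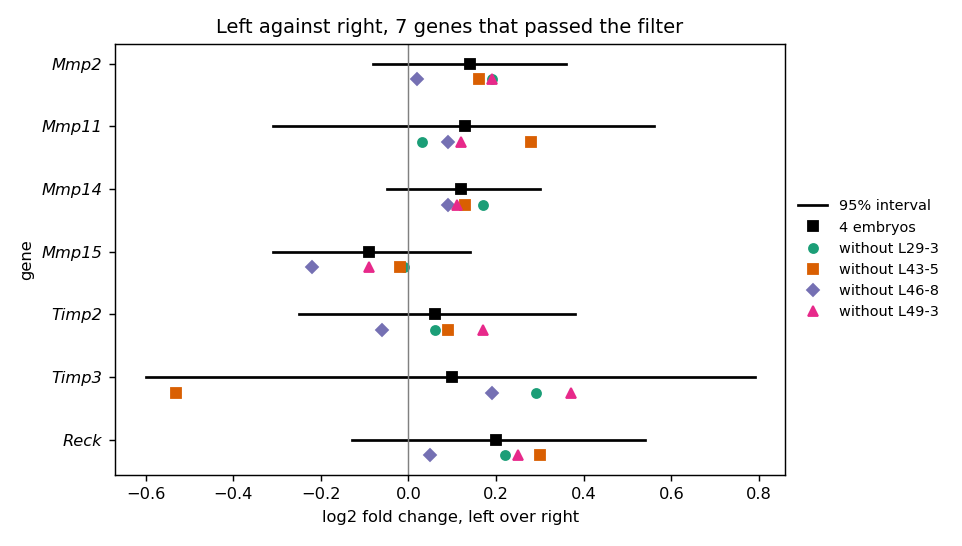
Log2 fold change of left over right for the 7 tested members, with its 95% interval from edgeR as a black line and the value without each embryo as a coloured mark below it. All 7 intervals include 0, and the value of *Timp3* moves from 0.10 to -0.53 without L43-5.

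The 95% intervals of 6 of the 7 tested members, *Timp3* being the exception, lay within a 1.5-fold difference in either direction. Of the tested members 6 had a log2 fold change above 0 and 1 below, with a median of 0.12 against 0.00 for all genes tested. The median size irrespective of sign was 0.12, and 0.09 for all genes. The same direction in all 4 embryos was seen in 0 of the 7 members and in 12.4% of all tested genes, and sides that did not overlap in 0 of 7 and in 2.50%. By embryo, the members were higher on the left in 4 of 7 cases for L29-3, 5 for L43-5, 6 for L46-8 and 2 for L49-3. Any ratio above 0 before rounding was counted, including *Mmp2* in L29-3 and *Reck* in L43-5, whose log2 ratios were 0.00 when rounded. Of all tested genes, between 49.4% and 51.0% were higher on the left in each embryo. In L46-8 their median log2 ratio was 0.31, with 0.00 for all tested genes. On the left and right of L46-8, cardiomyocyte markers summed to 2189 and 1230 normalized counts, juxta-cardiac field markers to 425 and 203, and neural tube markers to 105 and 307. Paraxial mesoderm markers summed to 454 and 605 and second heart field markers to 463 and 500. Surface ectoderm markers summed to 1581 and 1258 and cranial neural crest markers to 400 and 340. Endothelial markers summed to 721 and 693 and foregut endoderm markers to 129 and 127. The part of these tissues in the ratios of L46-8 was not tested.

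The members *Mmp9*, *Mmp16* and *Timp1* did not reach the filter, and their counts were small. *Mmp9* had 8, 19, 10 and 20 reads on the left of L29-3, L43-5, L46-8 and L49-3 and 4, 19, 7 and 4 on the right. In normalized counts, the left library of L49-3 had 31.0, and the other 7 had between 4.95 and 12.4. The mean log2 ratio of left to right was 0.64 ± 0.97 (SD, n = 4 embryos, two-sided exact sign-flip test over embryos, p = 0.250), and 0.16 without L49-3. With 4 embryos this test cannot give a p below 0.125. In the left library of L49-3, *Ptprc*, *Cx3cr1* and *Csf1r*, markers of blood cells that also make MMP9, summed to 1.55 normalized counts. The endothelial markers, 5 genes, summed to 571 on the left and 417 on the right of that embryo and to between 631 and 721 in the other 6 libraries, and their part in the value of *Mmp9* was not tested. *Mmp16*, the least expressed membrane-type enzyme, had 26, 24, 19 and 11 reads on the left and 19, 26, 17 and 6 on the right. Its mean log2 ratio was 0.07 ± 0.50 (SD, n = 4 embryos, two-sided exact sign-flip test over embryos, p = 0.750), with both signs among the embryos, and -0.15 without L49-3. *Timp1* had between 3 and 10 reads per library. Its normalized counts were 5.92 ± 1.54 in left and 5.02 ± 2.20 in right libraries (SD, n = 4 embryos), and the sides overlapped (two-sided exact sign-flip test over embryos, p = 0.50). With no filter, edgeR gave a log2 fold change of 0.67 for *Mmp9* (standard error 0.398, unadjusted p = 0.0917, adjusted p = 0.997), 0.02 for *Mmp16* (standard error 0.306, unadjusted p = 0.961) and 0.34 for *Timp1* (standard error 0.568, unadjusted p = 0.550).

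Since the effect of a protease depends on its inhibitors, the summed level of the inhibitors was divided by that of the enzymes within each library, a ratio that does not depend on the scaling between libraries. *Timp1*, *Timp2*, *Timp3* and *Reck* together had between 21.0 and 33.6 CPM per kilobase, and the 6 MMP genes between 79.5 and 108. There were thus between 0.250 and 0.366 inhibitor transcripts per MMP transcript on this scale. The log2 ratio averaged -1.71 ± 0.22 in left and -1.72 ± 0.22 in right libraries (SD, n = 4 embryos). Left minus right it was 0.13 for L29-3, 0.21 for L43-5 and 0.23 for L46-8, but -0.55 in L49-3, with a mean of 0.01 ± 0.37 (SD, n = 4 embryos, two-sided exact sign-flip test over embryos, p = 1.0). Without L49-3 the mean was 0.19 ± 0.05 (SD, n = 3 embryos, two-sided exact sign-flip test over embryos, p = 0.250, the smallest that 3 embryos allow). In L49-3 the inhibitors summed to 21.0 CPM per kilobase on the left and 29.1 on the right, and the enzymes to 83.9 and 79.5, so that the inhibitors differed more than the enzymes. Transcript ratios do not measure the balance of the proteins.

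**Figure D4:**
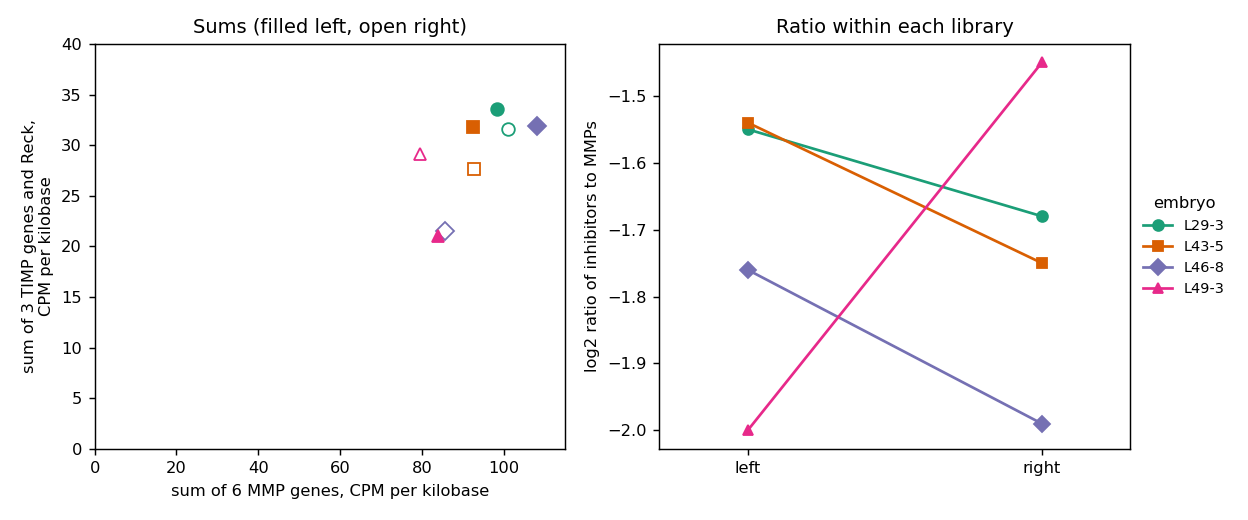
Left panel, summed level of the 4 inhibitor genes against that of the 6 MMP genes in CPM per kilobase, with left libraries filled and right libraries open, and right panel, the log2 ratio of both sums with the libraries of an embryo joined by a line. The line of L49-3 rises to -1.45 on the right, and those of the other 3 embryos fall.

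Differences between embryos were tested in the same fit, as each embryo contributed a library from either side. *Mmp14* had its lowest values, 221 and 194 normalized counts, in both libraries of L49-3, and ranged from 262 to 309 elsewhere. Both libraries of L49-3 were below the other 6 for 1 of the 7 tested members, *Mmp14*, and for 9.39% of all tested genes. Its unadjusted p for a difference among embryos was 0.0106 in edgeR (adjusted p = 0.288). *Timp2* had embryo means of 123 for L29-3, 100 for L43-5, 90.3 for L46-8 and 76.6 for L49-3 (edgeR, unadjusted p = 0.0450, adjusted p = 0.482). These 2 of the 7 tested members had an unadjusted p of at most 0.05, which 9.99% of all tested genes had, and 0 had an adjusted p under 0.05 in edgeR, limma-voom or DESeq2, against 0.174% of all genes in edgeR. Without L49-3 the unadjusted p from edgeR was 0.546 for *Mmp14*, and for *Timp2* it was 0.297 without L29-3 and 0.0801 without L49-3. The embryo mean was lowest in L49-3 for 5 of the 7 members, *Mmp2*, *Mmp14*, *Mmp15*, *Timp2* and *Reck*, and for 34.0% of all tested genes. The low sums of juxta-cardiac field markers in L49-3 are given above. Endothelial markers summed to 571 and 417 in its libraries and to between 631 and 721 in the other 6. Surface ectoderm markers were also lowest there, with 1047 and 1213 against 1258 to 1611. Neural tube markers were highest in L49-3, with 454 and 607 against 105 to 353. So were second heart field markers, with 619 and 520 against 296 to 500. Markers of the remaining tissues overlapped between L49-3 and the other embryos. The part of these tissues in the values of *Mmp14* was not tested.

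**Figure D5:**
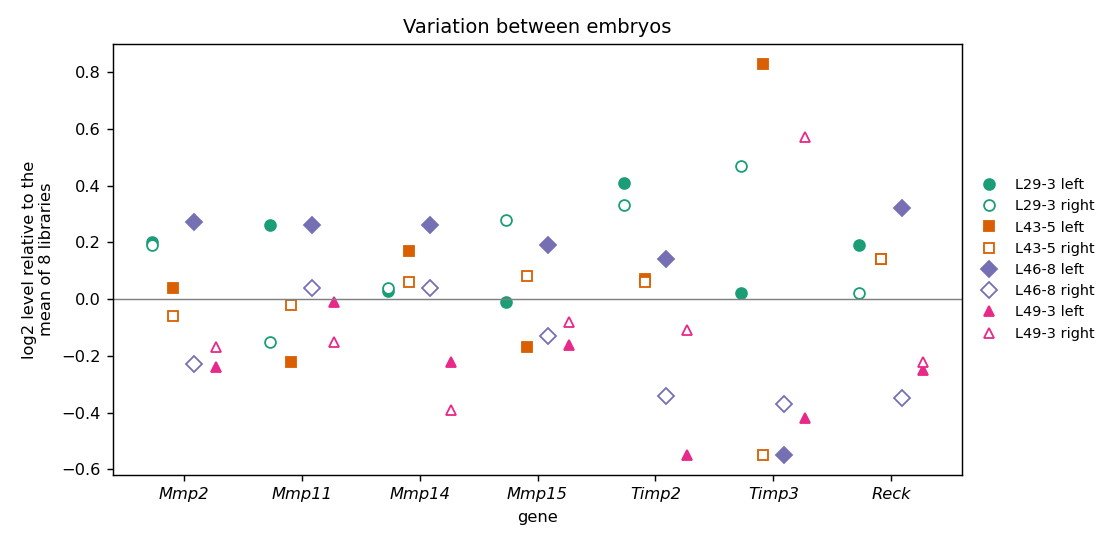
Log2 level of the 7 tested members relative to the mean of 8 libraries, from TMM-normalized CPM with a pseudocount of 0.5, by embryo, with left libraries filled and right libraries open. Both points of L49-3 lie below those of the other embryos for *Mmp14*, and the points of *Timp3* spread most.

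Other genes of the family had few reads in this tissue. Of 18 further genes for MMPs and *Timp4*, 0 reached the filter and 10 had no read in any library, among them the collagenase genes *Mmp8* and *Mmp13* and the stromelysin genes *Mmp3* and *Mmp10*. *Mmp17* had the most reads, 108 in all libraries together, with means of 13.6 normalized counts on both sides, and thus more than the members *Mmp9* with 91 and *Timp1* with 47. *Mmp21*, mutated in human laterality disorders, had 1 read in total, and its expression cannot be judged at this depth.

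Activators, docking proteins and clearance receptors of the MMPs were measured more deeply. Of 15 such genes, 11 were tested and 0 passed the threshold of the study, and their log2 fold changes had a median of 0.00. *Lrp1*, the endocytic receptor that clears MMP2, MMP9 and TIMP complexes, had 953, 851, 840 and 725 normalized counts in the left libraries and 873, 692, 657 and 638 in the right ones. The left exceeded the right in 4 of 4 embryos although the sides overlapped. Its log2 fold change, 0.24 with a standard error of 0.0648 (edgeR, unadjusted p = 0.00309, adjusted p = 0.987), lay under the 1.2-fold minimum. Without L29-3 it was 0.28 (edgeR, unadjusted p = 0.00478, adjusted p = 0.951) and passed the threshold of the study. The integrin genes *Itgb3* and *Itgav*, whose products form a receptor that can hold MMP2 at the cell surface, had log2 fold changes of 0.42 and 0.23, each higher on the left in 3 of 4 embryos, with unadjusted p-values of 0.134 and 0.120 from edgeR. For *Itgav*, 1 of these embryos, L49-3, had a log2 ratio of 0.00 when rounded. Without L29-3 the log2 fold changes were 0.27 and 0.15, and without L43-5 *Itgb3* did not reach the filter. *Furin*, which encodes the convertase that activates membrane-type MMPs and MMP11, had 140 normalized counts in the left libraries and 153 in the right ones on average (log2 fold change -0.13, unadjusted p = 0.272 from edgeR).

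Of 30 related metalloproteinase genes of the ADAM, ADAMTS and tolloid families, 15 were tested. *Adamts1*, *Adamts9* and *Adamts12* passed the threshold of the study, all with more on the left, and 0 passed with less, beside 1.63% of all genes that passed with more on the left. *Adamts1* and *Adamts9* encode proteases that cut versican, a proteoglycan of the cardiac jelly. *Adamts1* had 105, 108, 120 and 74.3 normalized counts in the left libraries and 109, 88.6, 71.1 and 44.9 in the right ones, and a log2 fold change left over right of 0.37 (edgeR, standard error 0.151, unadjusted p = 0.0302, adjusted p = 0.987). *Adamts9* had 124, 175, 172 and 133 on the left and 136, 130, 133 and 96.4 on the right, and a log2 fold change left over right of 0.28 (edgeR, standard error 0.120, unadjusted p = 0.0400, adjusted p = 0.987). L29-3 was the embryo without a left excess in both genes. *Adamts12* was lower, with 30.8, 22.8, 36.6 and 20.1 normalized counts in the left libraries and 18.6, 20.8, 16.5 and 11.6 in the right ones, and a log2 fold change left over right of 0.64 (edgeR, standard error 0.264, unadjusted p = 0.0324, adjusted p = 0.987), with more on the left in 4 of 4 embryos. The median log2 fold change of the 15 genes was 0.15, against 0.00 for all genes. The calls depended on the tool and the embryos. In limma-voom the unadjusted p was 0.0376 for *Adamts1*, 0.0283 for *Adamts9* and 0.0455 for *Adamts12*, and all 3 genes also passed with both other scalings. In DESeq2 it was 0.0966, 0.155 and 0.129, although the log2 fold changes there were 0.40, 0.27 and 0.67. With an embryo left out, the unadjusted p in edgeR exceeded 0.05 for *Adamts1* without L43-5 (0.0573), L46-8 (0.160) or L49-3 (0.0780) and for *Adamts9* without the same embryos (0.182, 0.107 and 0.106). For *Adamts12* it was 0.0949 without L29-3, 0.151 without L46-8 and 0.0598 without L49-3, and without L43-5 this gene did not reach the filter. With no replicate block it was 0.111 for *Adamts1*, 0.0704 for *Adamts9* and 0.0263 for *Adamts12*.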

How the data were processed

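The 8 libraries hold RNA of either side of the heart field of 4 male wild-type embryos, and were grouped by side and paired by embryo from the sample labels. The values deposited by the authors are raw counts of reads per gene. Per the methods, the authors mapped paired reads of poly-A RNA with Hisat2 (GRCm38), dropped duplicates and used featureCounts for these counts. The versions of these tools and the strand setting are not given in the sources used here. Whether molecular identifiers were used is not given there either, and counting limits cover counting error only.

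Symbols, positions and exon lengths came from GENCODE vM21 of GRCm38, which named 48144 of 48526 identifiers. The sides were tested against each other in R 4.3.3 by edgeR 4.0.16 (TMM, quasi-likelihood test, embryo as a block) on 9744 genes that reached 20 counts, after DESeq2 size factors, in 4 or more libraries, with Benjamini-Hochberg adjustment over all of them. Embryos were compared in the same fit. Intervals are 95% intervals of the fitted coefficient. For genes under the filter, log2 ratios of TMM-normalized CPM with a pseudocount of 0.5 were tested by an exact permutation test that flips the sign of each embryo. Levels per kilobase are the same TMM-normalized CPM over merged exon length. Alternatives used limma 3.58.1, DESeq2 1.42.0, other normalizations and filters, no block, and each embryo left out. Near-identical transcripts were searched with blastn 2.17.0. The methods were run on simulated counts with 4-fold differences. These are larger than the fold changes fitted for the members, so that the simulation does not show the power at such sizes. The members, the lists of related and marker genes and the comparisons were chosen with earlier results of these data known. All members are named, with *Mmp21*, the related genes past the study's threshold and the 3 tested genes of smallest p of each list; *Furin*, *Mmp17*, *Mmp3*, *Mmp8*, *Mmp10* and *Mmp13* were named after their values were seen. The list of related genes also named *Adamts11*, an older name of *Adamts5*, which had no row and was not counted.

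Both sides of an embryo come from the same animal, which sets the pairing. The correlation of their deviations from the side means was 0.165 for L29-3, 0.190 for L43-5, -0.0158 for L46-8 and 0.437 for L49-3, against -0.389 to 0.255 between sides of different embryos. Every pair of libraries differed by more than sampling noise (lowest chi-square over its degrees of freedom, 1.93).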

Additional observations from a re-analysis of the deposited data

Results flagged for a closer look

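Of 33 groups of 4 values examined for a sample far from the others, 3 had one, where chance gives about 5% of groups, and each concerned embryo L49-3. The right library of L49-3 had 194 normalized counts of *Mmp14*, against 264 to 269 in the other right libraries. The right library of L49-3 had 8.31 normalized counts of *Timp1*, or 5 reads, against 3.71 to 4.27 in the others. The log2 ratio of inhibitors to MMPs, left minus right, was -0.55 in L49-3 and between 0.13 and 0.23 in the other 3 embryos.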

How the results depend on the processing

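For the members, 0 had an adjusted p under 0.05 between sides or between embryos under any alternative run. The number of members past the threshold of the study was 0 to 1 with an embryo left out, the 1 being *Timp3* without L43-5, and 0 under every other alternative. The log2 fold change changed sign for *Timp3* in DESeq2 (-0.03) and without L43-5 (-0.53), for *Timp2* without L46-8 (-0.06) and for *Mmp16* without L49-3 (-0.15). With an embryo left out it ran from -0.53 to 0.37 for *Timp3*, from -0.06 to 0.17 for *Timp2* and from -0.15 to 0.24 for *Mmp16*. The log2 inhibitor to MMP ratio, left minus right, was -0.03 without *Reck* and from -0.07 without L46-8 to 0.19 without L49-3. The order of levels kept 5 of 10 positions with the longest transcript as length. Over all genes, 297 passed the threshold of the study, 687 without a filter and 59 in DESeq2, and 291 to 388 with an embryo left out. An adjusted p under 0.05 was reached by 1 gene, by 34 without a filter, by 2 in DESeq2, by 0 with at least 10 counts in every library and by 0 with no replicate block, and by 1 to 5 with an embryo left out. Genes that differed between embryos at an adjusted p under 0.05 numbered 17, 641 without a filter, 9 with at least 10 counts in every library, 51 in DESeq2, 4 in limma-voom and 0 to 237 with an embryo left out, the 0 being without L49-3. The causes of these changes were not tested. With no replicate block, in which the libraries of an embryo are not paired, *Mmp2* had a log2 fold change of 0.15, and 0 members passed the threshold. *Mmp9*, *Mmp16* and *Timp1* had at most 26 reads in a library, and their exact test over 4 embryos cannot pass 0.05 at any depth.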
